A study of Mus musculus with 27 samples.

Results

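The genes described here are 10 genes of glucocorticoid signalling: 6 that the hormone induces in many cells (*Fkbp5*, *Tsc22d3*, *Zbtb16*, *Sgk1*, *Klf9* and *Klf15*), its 2 receptors (*Nr3c1* and *Nr3c2*) and 2 enzymes that make or inactivate it (*Cyp11b1* and *Hsd11b2*). They are members by name, the rule using no measured value, although earlier results of these data were known when they were chosen, and stand among 46078 genes counted by RNA-Seq in ileal epithelium. All 10 were listed in every mouse, and 9 had enough counts to be tested, *Cyp11b1* being the exception. The mice were 27 male C57BL/6 animals of postnatal day 56, with 3 vehicle mice (sesame oil) and 3 mice for each of 8 doses of the dioxin TCDD, of which 4 were low (0.01, 0.03, 0.1 and 0.3 µg/kg) and 4 higher (1, 3, 10 and 30 µg/kg), all by gavage at intervals of 4 d for 28 d. TCDD is a persistent ligand of the aryl hydrocarbon receptor, a transcription factor. The labels name no modified allele, mice were housed together in cages and fasted before they were killed, and the epithelium was scraped from the gut wall, so that each library is a mixture of cells.

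Corticosterone, the main glucocorticoid of mice, is made in the adrenal cortex, follows a daily rhythm and rises with fasting and stress. It enters cells and binds the glucocorticoid receptor (*Nr3c1*), which is held by heat shock proteins until the hormone frees it to bind glucocorticoid response elements in DNA. The mineralocorticoid receptor (*Nr3c2*) binds corticosterone as well, unless the enzyme encoded by *Hsd11b2* inactivates it first, and in epithelia it is known for control of sodium transport. The intestine is known to make some corticosterone of its own, for which *Cyp11b1* carries out the last step.

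Each mouse had between 12.26 and 17.14 M counts on genes (median 14.14 M), and values are given below as counts scaled to a library of 1000000 (CPM). Enterocyte markers were high throughout, with the sum of 6 genes between 7873 and 13340 CPM, and the sum of 6 adrenal cortex markers was between 1.13 and 3.16 CPM. *Cyp1a1*, the classical target of the aryl hydrocarbon receptor, stood at 0 to 0.211 CPM in vehicle mice, and reached 517 to 647 CPM in mice given 10 µg/kg and 1062 to 2279 CPM in those given 30 µg/kg. The library index, the short barcode of each library, was used for the first time in 16 mice (vehicle to 0.3 µg/kg, and mouse 41 at 1 µg/kg) and for the second time in 11 mice (mice 43 and 44 at 1 µg/kg, and every mouse at 3, 10 and 30 µg/kg). First and second use were counted in order of mouse number, and the labels do not say whether they mark sequencing runs. From 3 µg/kg upward every treated mouse had the second use and every vehicle mouse the first, so the effects of dose and index use cannot be told apart. Fewer cells of a type and less RNA per cell cannot be told apart in such libraries either. Mouse 65 stood apart from the other 30 µg/kg mice, with the lowest *Cyp1a1* and the most smooth muscle RNA of its group, and mouse 14 (0.01 µg/kg) stood apart from the low doses in its clock genes. Where leaving out mouse 65 changed a call of a gene named here, the value without it is given.

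The DNA just before the transcription starts given by RefSeq was read for the members it covers. Windows of 250 bases (GRCm38.p6) were found for 6 of the 10 genes, with 13 windows in all because *Sgk1* and *Tsc22d3* have several. Those of *Klf9*, *Klf15* and *Fkbp5*, which have 1 window each and were induced at 30 µg/kg, are printed 5′ to 3′ with the *Sgk1* window that holds a full glucocorticoid response element. Capitals mark matches on either strand to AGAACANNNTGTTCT (the full element), TGTTCT (the hexamer inside it), GCGTG (the core of the dioxin response element), CACGTG (the E-box, bound by the clock and other factors) and TTATGTAA (the D-box). The *Fkbp5* window lies inside the annotated span of that gene, which begins further upstream. A match says only that these letters are present.
*Fkbp5*, chr17:28486150-28486399, minus strand: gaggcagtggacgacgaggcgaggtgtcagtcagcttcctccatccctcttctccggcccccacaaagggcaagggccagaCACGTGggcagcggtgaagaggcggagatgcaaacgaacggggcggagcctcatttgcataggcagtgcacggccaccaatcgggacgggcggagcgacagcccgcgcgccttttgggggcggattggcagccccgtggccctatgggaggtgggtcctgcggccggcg
*Klf9*, chr19:23140976-23141225, plus strand: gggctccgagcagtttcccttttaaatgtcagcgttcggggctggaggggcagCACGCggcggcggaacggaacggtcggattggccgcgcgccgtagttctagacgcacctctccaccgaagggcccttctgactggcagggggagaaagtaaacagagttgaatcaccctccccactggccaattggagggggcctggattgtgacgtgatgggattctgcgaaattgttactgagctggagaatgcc
*Klf15*, chr6:90462326-90462575, plus strand: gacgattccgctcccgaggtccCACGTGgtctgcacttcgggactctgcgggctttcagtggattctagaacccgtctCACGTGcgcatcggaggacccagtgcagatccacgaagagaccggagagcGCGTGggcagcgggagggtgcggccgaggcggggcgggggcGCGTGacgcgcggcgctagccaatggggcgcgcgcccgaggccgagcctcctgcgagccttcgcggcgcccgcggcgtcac
*Sgk1*, chr10:21993640-21993889, plus strand: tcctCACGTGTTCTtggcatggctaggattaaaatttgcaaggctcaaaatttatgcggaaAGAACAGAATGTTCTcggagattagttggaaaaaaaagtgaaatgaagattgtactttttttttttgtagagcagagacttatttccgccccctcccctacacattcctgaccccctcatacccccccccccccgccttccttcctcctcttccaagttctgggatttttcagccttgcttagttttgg

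The *Sgk1* window was 1 of 3 windows among 32851 (0.00913%) with the full element, and in it an E-box and a further TGTTCT overlap. TGTTCT was present in 4 of the 13 member windows (3 of *Sgk1* and 1 of *Tsc22d3*), beside 16.1% of all windows, and the full element counts as a pair of these matches, 1 on each strand. GCGTG was present in 5 of the 13 (*Klf9*, *Klf15*, *Nr3c2* and 2 windows of *Sgk1*), beside 28.2% of all windows, and CACGTG in 3 of the 13, beside 6.02%. No D-box match was found in the 13 windows, beside 0.819% of all windows.

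The first question was at which doses these genes differed from vehicle. A gene was called when its adjusted p (edgeR's quasi-likelihood test, adjusted by the Benjamini-Hochberg method over 16741 genes) was at most 0.05 and its change was at least 1.5-fold. At 0.01, 0.03, 0.1 and 0.3 µg/kg, 0 of the 9 tested members were called, beside 0.0% of all genes at each dose. No member had an unadjusted p under 0.05 at these doses, beside 591 to 1247 of the 16741 genes, and DESeq2 called 0 of the members. At 1 µg/kg 1 member was called, *Nr3c2*, upward, beside 0.591% of all genes in either direction and 0.4% upward. At 3 µg/kg none was called, beside 1.11% of all genes in either direction and 0.645% upward. There 4 members had an unadjusted p under 0.05, beside 2289 of the 16741 genes, and *Nr3c2* passed the adjusted p without the fold limit. At 10 µg/kg 3 members rose (*Fkbp5*, *Klf9* and *Nr3c2*), beside 2.53% of all genes called, 1.76% upward. At 30 µg/kg all 6 induced genes rose, by 2.04- to 16.2-fold, beside 9.4% of all genes called in either direction and 5.42% called upward. The receptors and *Hsd11b2* were not called at 30 µg/kg. Without mouse 65 the same 6 genes were called at 30 µg/kg, with log2 fold changes of 2.41 for *Fkbp5*, 2.18 for *Tsc22d3*, 4.44 for *Zbtb16*, 1.70 for *Sgk1*, 1.10 for *Klf9* and 1.78 for *Klf15*. The median log2 fold change of the 9 members was 1.36 at 30 µg/kg, beside 0.02 over all genes, after 0.53 at 3 µg/kg and 0.74 at the next dose.

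The separation of the groups was read gene by gene as well, by whether the 3 mice of a dose lay outside the range of the 3 vehicle mice. At 0.01 µg/kg 1 member lay below (*Sgk1*, beside 5.54% of all genes) and none above (beside 5.63%). No member lay outside at 0.03 µg/kg (beside 4.49% of all genes above and 5.55% below), at 0.1 µg/kg (7.01% and 6.68%) or at 0.3 µg/kg (8.06% and 8.49%). At 1 µg/kg *Klf9* and *Nr3c2* lay above, beside 10.3% of all genes, and none lay below, beside 10.2%. At 3 µg/kg 7 of the 9 lay above (all but *Nr3c1* and *Hsd11b2*), beside 12.4% of all genes, and none below, beside 12.1%. At 10 µg/kg 5 lay above, beside 11.5%, and *Nr3c1* below, beside 11.8%, *Tsc22d3* and *Sgk1* being no longer outside. At 30 µg/kg the same 7 genes as at 3 µg/kg lay above, beside 13.7%, and *Nr3c1* below, beside 13.3%.

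**Figure D1:**
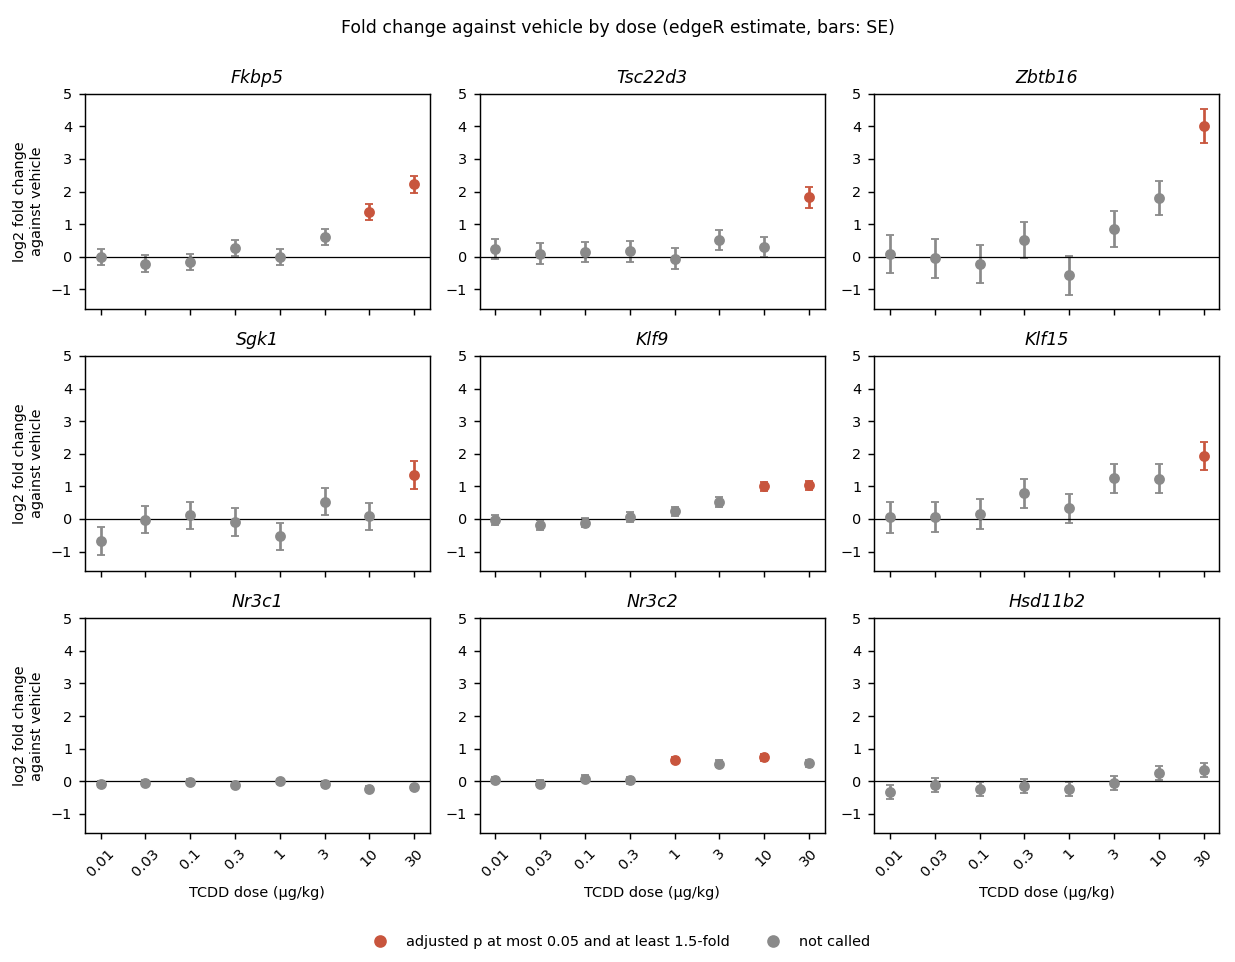
Log2 fold change against vehicle (vertical axis) at each TCDD dose in µg/kg (horizontal axis) for the 9 tested genes, with points for the edgeR estimate from 3 treated and 3 vehicle mice and bars for its SE. Red points passed both limits: all 6 induced genes at 30 µg/kg, *Fkbp5* and *Klf9* at 10 µg/kg, and *Nr3c2* at 1 and 10 µg/kg, while *Nr3c1* and *Hsd11b2* are grey at every dose.

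*Fkbp5* encodes an immunophilin that binds the receptor's chaperone complex and lowers its affinity for hormone, so that its induction is a feedback. It lies on chromosome 17 (ENSMUSG00000024222, 28399094 to 28517527, minus strand, GRCm38). In vehicle mice it stood at 47.9, 61.3 and 65.8 CPM (681 to 951 counts), and in the 12 mice given 0.01 to 0.3 µg/kg it ranged from 41.0 to 88.9 CPM. At 1 µg/kg it was 42.0, 86.1 and 47.7 CPM, and at 3 µg/kg 77.3, 79.7 and 112 CPM, the first dose at which the 3 mice lay above all vehicle mice. The 10 µg/kg mice had 118, 154 and 183 CPM and the 30 µg/kg mice 180, 336 and 300 CPM, without overlap with vehicle at either dose. *Fkbp5* was induced 2.60-fold at 10 µg/kg (log2 fold change 1.38 ± 0.25 SE, edgeR adjusted p = 0.00206) and 4.66-fold at 30 µg/kg (2.22 ± 0.25 SE, adjusted p = 4.04e-06). Its estimate at 3 µg/kg, 0.62 ± 0.25 SE, had an edgeR adjusted p of 0.242.

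*Zbtb16* encodes PLZF, a zinc finger repressor, and lies on chromosome 9 (ENSMUSG00000066687, 48654297 to 48836222, minus strand). It was low in vehicle mice, at 1.76 to 3.05 CPM (24 to 44 counts), and had the largest fold of the 9 tested genes at 30 µg/kg. At 3 µg/kg it was 3.54, 4.90 and 5.62 CPM, at 10 µg/kg 10.8, 8.38 and 8.33 CPM, and at 30 µg/kg 11.5, 63.7 and 52.5 CPM. Each of these 9 mice lay above all vehicle mice, and at 30 µg/kg mouse 65 (11.5 CPM) was close to the 10 µg/kg mice and far below mice 67 and 68. The change was 16.2-fold at 30 µg/kg (log2 4.02 ± 0.53 SE, edgeR adjusted p = 1.91e-05). At 10 µg/kg the estimate was 1.81 ± 0.53 SE with an edgeR adjusted p of 0.0571, and with DESeq2 the adjusted p was 0.0378.

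*Tsc22d3* encodes GILZ, a leucine zipper protein that carries part of the anti-inflammatory action of glucocorticoids, and lies on chromosome X (ENSMUSG00000031431, 140539528 to 140600659, minus strand). Vehicle mice had 29.5 to 36.4 CPM, and the 12 mice at 0.01 to 0.3 µg/kg ranged from 26.5 to 46.4 CPM. At 3 µg/kg the mice had 36.9, 49.5 and 52.9 CPM, and at 10 µg/kg 35.1, 42.0 and 43.5 CPM, so that the ranges of these doses overlap. At 30 µg/kg it was 43.8 CPM in mouse 65, within the range of lower doses, and 130 and 172 CPM in mice 67 and 68. The estimate was 3.53-fold (log2 1.82 ± 0.31 SE, edgeR adjusted p = 0.000379), and it ranged from 1.41 to 2.18 when 1 of the 6 mice was left out.

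*Sgk1* encodes a kinase that raises sodium channel and transporter activity, a target of both receptors, and lies on chromosome 10 (ENSMUSG00000019970, 21882184 to 21999903, plus strand). Vehicle mice were within 299 to 309 CPM, but single mice at other doses were far lower, with 129 CPM in mouse 9 at 0.01 µg/kg, 64.9 CPM in mouse 41 at 1 µg/kg and 190 CPM in mouse 57 at 10 µg/kg. At 30 µg/kg mouse 65 had 319 CPM, just above the vehicle mice, and mice 67 and 68 had 951 and 1082 CPM. The call at 30 µg/kg (log2 1.36 ± 0.43 SE, edgeR adjusted p = 0.0292) was lost when any of the 3 vehicle mice or mouse 67 or mouse 68 was left out (adjusted p 0.0726 to 0.137), and without mouse 65 the estimate was 1.70 with an adjusted p of 0.00299. With only these 6 mice in the fit the adjusted p was 0.0798.

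*Klf9* encodes a zinc finger factor that glucocorticoids and thyroid hormone induce and that also follows the daily clock, and lies on chromosome 19 (ENSMUSG00000033863, 23141226 to 23168134, plus strand). Vehicle mice had 33.6, 31.3 and 34.4 CPM, mice given 3 µg/kg had 46.5, 44.2 and 51.9 CPM, mice given 10 µg/kg had 70.6, 67.7 and 60.4 CPM, and mice given 30 µg/kg had 57.5, 82.0 and 63.5 CPM. The 3 mice of each of these doses lay above all vehicle mice, and 10 and 30 µg/kg overlapped. *Klf9* was induced 2.00-fold at 10 µg/kg (log2 1.00 ± 0.15 SE, edgeR adjusted p = 0.000265) and 2.04-fold at 30 µg/kg (1.03 ± 0.15 SE, adjusted p = 4.58e-05). Mouse 14 at 0.01 µg/kg, with 42.1 CPM, was the highest mouse below 1 µg/kg.

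*Klf15*, a related zinc finger factor known for glucocorticoid control of amino acid and lipid metabolism, lies on chromosome 6 (ENSMUSG00000030087, 90462576 to 90475238, plus strand) and was rare in ileal epithelium. Vehicle mice had 1.55 to 2.08 CPM (22 to 30 counts), so that sampling adds to its spread. The mice given 3 µg/kg had 2.99, 4.83 and 4.65 CPM, those given 10 µg/kg had 4.16, 3.76 and 4.47 CPM, and those given 30 µg/kg had 7.95, 8.59 and 3.66 CPM, each of these mice above all vehicle mice. The estimate was 3.85-fold at 30 µg/kg (log2 1.94 ± 0.43 SE, edgeR adjusted p = 0.00324) and 1.24 ± 0.44 SE at 10 µg/kg (adjusted p = 0.127). Here mouse 65 (7.95 CPM) was not low, and mouse 68 (3.66 CPM) was the lowest of its group, the reverse of *Zbtb16*, *Tsc22d3* and *Sgk1*.

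**Figure D2:**
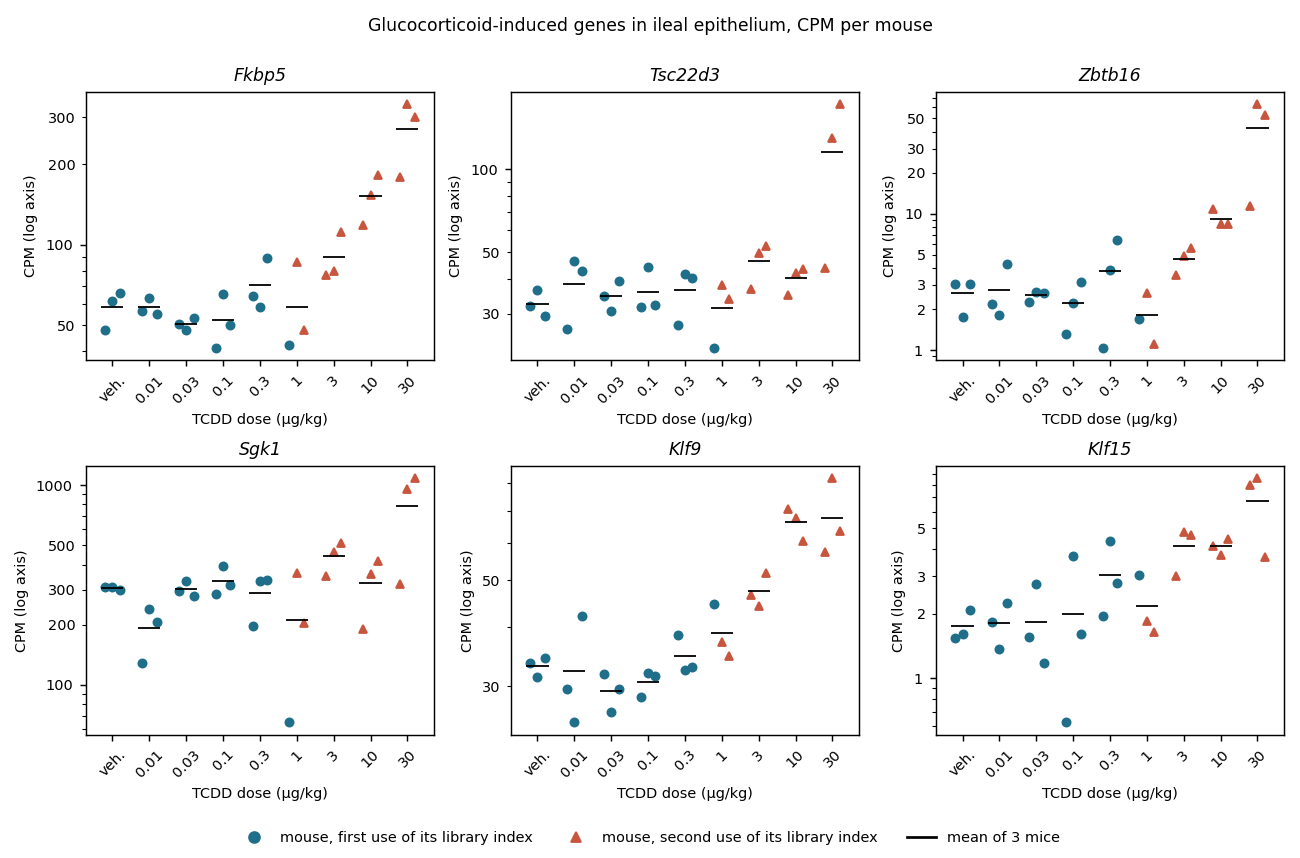
CPM per mouse (vertical axis, logarithmic) of the 6 induced genes by TCDD dose in µg/kg (horizontal axis, veh. for vehicle), with circles and triangles for the first and second use of the library index and lines for the mean of 3 mice. At 30 µg/kg mouse 65 sits at 43.8 CPM for *Tsc22d3*, 11.5 CPM for *Zbtb16* and 319 CPM for *Sgk1*, well below the other mice of its dose.

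Of the receptors, *Nr3c2* rose at 1 and 10 µg/kg and *Nr3c1* was called at no dose. *Nr3c1*, on chromosome 18 (ENSMUSG00000024431, 39410545 to 39519421, minus strand), was between 217 and 302 CPM in all 27 mice. Vehicle mice had 266, 283 and 289 CPM, the 10 µg/kg mice 229, 237 and 248 CPM, and the 30 µg/kg mice 217, 259 and 261 CPM. The 3 mice of either dose lay below all vehicle mice, and the estimates were -0.23 ± 0.08 SE (edgeR adjusted p = 0.132) and -0.18 ± 0.08 SE (adjusted p = 0.129).

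*Nr3c2*, on chromosome 8 (ENSMUSG00000031618, 76899442 to 77245012, plus strand), was the 1 tested member called at 1 µg/kg. It stood at 110 to 126 CPM in vehicle mice and at 101 to 144 CPM in the 12 mice at 0.01 to 0.3 µg/kg. The mice given 1 µg/kg had 194, 198 and 164 CPM, those given 3 µg/kg had 173, 174 and 170 CPM, those given 10 µg/kg had 213, 173 and 205 CPM, and those given 30 µg/kg had 159, 181 and 180 CPM. These 12 mice were above every mouse of the lower doses and of vehicle. The share of all genes that split the mice in this way was not computed. The change was 1.57-fold at 1 µg/kg (log2 0.65 ± 0.10 SE, edgeR adjusted p = 0.00364), 1.46-fold at 3 µg/kg (adjusted p = 0.00677), 1.67-fold at 10 µg/kg (0.74 ± 0.10 SE, adjusted p = 0.000225) and 1.47-fold at 30 µg/kg (0.55 ± 0.10 SE, adjusted p = 0.000876). At 3 and 30 µg/kg it passed the adjusted p but not the limit of 1.5-fold, and without mouse 4 (vehicle) it passed both (edgeR adjusted p = 0.0276 and 0.00342). Mouse 41, at 1 µg/kg with the first use of its index, had 194 CPM. Mice 43 and 44, with the second use, had 198 and 164 CPM. At this dose the first use rests on mouse 41 alone, so index use and differences between mice cannot be told apart.

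The enzymes gave no call at a single dose. *Hsd11b2*, on chromosome 8 (ENSMUSG00000031891, 105518755 to 105523988, plus strand), had 19.7, 19.7 and 28.8 CPM in vehicle mice and 35.6, 21.4 and 29.9 CPM at 30 µg/kg, groups that overlap, with an estimate of 0.35 ± 0.21 SE (edgeR adjusted p = 0.276). *Cyp11b1*, on chromosome 15 (ENSMUSG00000075604, 74834125 to 74841643, minus strand), had 0 to 4 counts per mouse and 28 counts over the 27 mice, with 0 in 10 of them. A count of 0 allows up to 3 counts, or 0.169 to 0.249 CPM over these mice, for counting error only. A difference in *Cyp11b1* below about that level was therefore not detectable at this depth. Of its exon bases 9.0% overlap another gene, *Gml2*, and 10.5% of its stretches of 50 bases also occur in other genes.

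**Figure D3:**
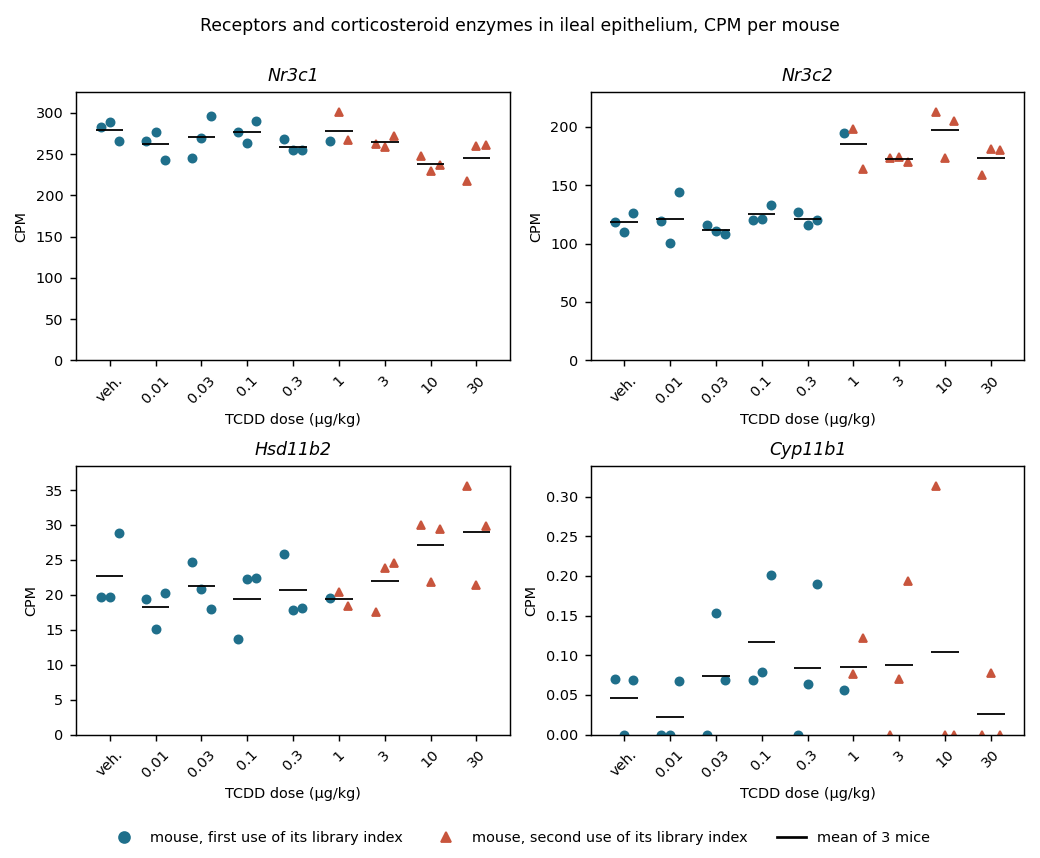
CPM per mouse (vertical axis, from 0) of both receptors and both enzymes by TCDD dose in µg/kg (horizontal axis, veh. for vehicle), with circles and triangles for the first and second use of the library index and lines for the mean of 3 mice. *Nr3c2* is at 159 to 213 CPM from 1 µg/kg upward and at 101 to 144 CPM below, while *Cyp11b1* stays under 0.32 CPM.

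The high doses were also set against each other, where every library had the second use of its index. Between 10 and 3 µg/kg 0 of 9 members were called by edgeR, beside 0.0418% of all genes, and DESeq2 also called 0. Of the members 2 had an unadjusted p under 0.05, beside 1090 of all 16741 genes. Between 30 and 3 µg/kg 3 members rose, beside 0.89% of all genes called and 0.645% upward: *Fkbp5* (log2 1.60 ± 0.25 SE, adjusted p = 0.00126), *Zbtb16* (3.17 ± 0.50 SE, adjusted p = 0.00138) and *Tsc22d3* (1.31 ± 0.31 SE, adjusted p = 0.0345). Without mouse 65 *Klf9* was called as well (0.59, adjusted p = 0.0196). In the fit of only those 6 mice 0 were called, with adjusted p of 0.0793, 0.114 and 0.392. Between 30 and 10 µg/kg *Zbtb16* (2.21 ± 0.47 SE, edgeR adjusted p = 0.0336) and *Tsc22d3* (1.52 ± 0.31 SE, adjusted p = 0.0268) rose, beside 0.34% of all genes called and 0.197% upward. Both calls between 30 and 10 µg/kg were lost without any of mice 57, 58, 59, 67 or 68 (adjusted p 0.0625 to 0.211). Without mouse 65, 4 members were called there, with *Fkbp5* (adjusted p = 0.00844) and *Sgk1* (0.0132) added. The call of *Tsc22d3* between 30 and 3 µg/kg was lost without any of mice 50, 51, 52, 67 or 68 (adjusted p 0.0755 to 0.206).

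In the next tests a call rested on the adjusted p alone, with no fold limit. Over all 9 groups, 7 of 9 members differed by edgeR's test of any difference, beside 9.53% of all genes, the exceptions being *Nr3c1* (adjusted p = 0.356) and *Hsd11b2* (0.251). In a trend over the rank of the dose, 8 of 9 rose, beside 26.2% of all genes called and 13.4% called upward. The slopes, in log2 units per step of dose, ran from 0.05 ± 0.02 SE for *Hsd11b2* (edgeR adjusted p = 0.0463) to 0.49 ± 0.07 SE for *Zbtb16* (adjusted p = 6.42e-06), with *Fkbp5* at 0.26 ± 0.03 SE and *Klf9* at 0.15 ± 0.02 SE. The trend of *Hsd11b2* was lost in 18 of the 27 fits without 1 mouse (adjusted p 0.0521 to 0.167), the fit without mouse 65 among them (0.167), and that of *Sgk1* without mouse 67 or mouse 68 (adjusted p 0.0552 to 0.0671). *Nr3c1* had a slope of -0.02 ± 0.01 SE and an adjusted p of 0.0532, which fell below 0.05 in 8 of the 27 fits without 1 mouse. Within the 11 mice of the second index use 4 members rose with dose, *Fkbp5*, *Zbtb16*, *Klf9* and *Klf15*, with adjusted p of 0.00144, 0.000735, 0.00842 and 0.0475, beside 1.44% of all genes called. Within the 16 mice of the first use none did, beside 0.144% of all genes.

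Levels of different genes were compared per kilobase of exon. In vehicle mice *Sgk1* was the most abundant of the 10 at 62.3 ± 1.2 CPM per kb (SD, n = 3), followed by *Nr3c1* at 36.3 ± 1.5, *Nr3c2* at 18.3 ± 1.3 and *Hsd11b2* at 12.4 ± 2.8 CPM per kb. *Tsc22d3* (7.51 ± 0.81), *Klf9* (6.87 ± 0.33) and *Fkbp5* (6.16 ± 0.98) came next, with ranges over mice that overlap, and *Klf15* (0.626 ± 0.10) and *Zbtb16* (0.494 ± 0.14) overlapped as well. At 30 µg/kg *Fkbp5* stood at 28.7 ± 8.7 CPM per kb and *Tsc22d3* at 26.5 ± 15.1, near *Nr3c2* at 26.8 ± 2.0 and *Nr3c1*, which ranged from 28.2 to 33.9 CPM per kb. *Zbtb16* rose to 8.06 ± 5.21 CPM per kb at 30 µg/kg, above *Klf15* at 2.41 ± 0.96, although mouse 65 (2.17 CPM per kb of *Zbtb16*) lay within the range of *Klf15*.

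Among 24 other genes known as glucocorticoid targets in some tissue, 23 were tested, and 6 rose and 2 fell at 30 µg/kg, beside 5.42% of all genes called upward and 3.98% downward. Their median log2 fold change was 0.41, beside 0.02 over all genes. *Pck1*, the rate-limiting enzyme of gluconeogenesis, was at 19.3 to 36.7 CPM in vehicle mice and 107 to 374 CPM at 30 µg/kg (log2 3.31 ± 0.72 SE, edgeR adjusted p = 0.00259). *Angptl4*, an inhibitor of lipoprotein lipase, was at 12.9 to 24.8 CPM in vehicle mice and 54.1 to 189 CPM in the 30 µg/kg mice (2.97 ± 0.41 SE, edgeR adjusted p = 3.7e-05). Mouse 65 was again the lowest of the 30 µg/kg mice. *Pdk4*, which restrains pyruvate oxidation, rose by 2.80 ± 0.54 SE on the log2 scale, or by 2.00 without mouse 67 (edgeR adjusted p = 0.0183), and *Hif3a*, a hypoxia-inducible factor, by 2.46 ± 0.28 SE. *Per1*, a clock gene with a known response element, rose by 1.70 ± 0.30 SE and *Mertk*, a receptor kinase for uptake of dying cells, by 1.41 ± 0.16 SE. *Tat*, tyrosine aminotransferase and a textbook glucocorticoid target of liver, was at 63.2 to 77.2 CPM in vehicle mice and fell at 30 µg/kg, with 10.9 to 24.6 CPM (-2.05 ± 0.41 SE, adjusted p = 0.0013). Every treated group lay below the vehicle mice for *Tat*, 0.01 µg/kg included (23.8 to 54.7 CPM, edgeR adjusted p = 1.0), beside 5.54% of all genes at 0.01 µg/kg. Comparisons of each dose with vehicle share the same 3 vehicle mice, so they are not independent of each other. *Cebpd*, a leucine zipper factor, fell as well at 30 µg/kg (-1.20 ± 0.29 SE, adjusted p = 0.00647). Its 3 mice lay below all vehicle mice at every dose but 0.03 µg/kg, beside 5.54% of all genes at 0.01 µg/kg and 13.3% at 30 µg/kg. *Dusp1*, *Ddit4*, *Nfkbia*, *Mt1* and *Mt2*, which respond rapidly in many cells, were not called, with estimates from -0.47 for *Nfkbia* to 0.59 for *Dusp1*. At 10 µg/kg 3 of the 23 rose and 0 fell, beside 2.53% of all genes called and 1.76% upward. At 3 µg/kg 3 rose and 1 (*Tat*) fell, beside 1.11% of all genes called and 0.645% upward. The clock genes described further on moved with dose too, and the changes at 30 µg/kg were refitted with a score of the clock as a covariate. *Mertk* alone of the 8 was still called there (1.52 ± 0.30 SE, edgeR adjusted p = 0.0326). That score rose with dose as well, so the fit cannot tell clock and dose apart.

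**Figure D4:**
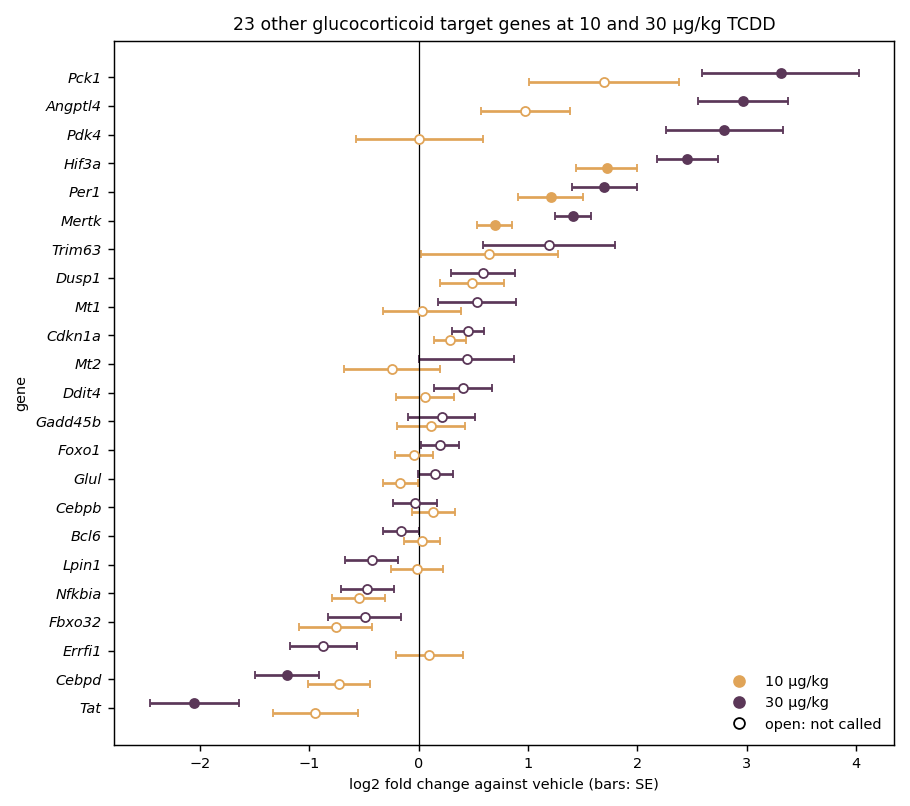
Log2 fold change against vehicle (horizontal axis, bars for SE) of 23 other glucocorticoid target genes (vertical axis) at 10 µg/kg and 30 µg/kg, ordered by the value at 30 µg/kg, with filled points for called genes. From *Pck1* at 3.31 to *Tat* at -2.05, 8 of the 23 are filled at 30 µg/kg.

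The genes for proteins that hold and assist the receptor gave no call in a comparison of single doses with vehicle. Of 15 genes for chaperones, co-activators and co-repressors, 0 were called by edgeR at 30 µg/kg, beside 9.4% of all genes, and the median was -0.09. An unadjusted p under 0.05 was found for 7 of them, beside 5230 of all 16741 genes. In the trend over dose, with no fold limit, 4 rose and 4 fell, beside 26.2% of all genes called, and 1 differed among groups, beside 9.53%. *Fkbp4*, the immunophilin that competes with *Fkbp5*, had an estimate of -0.51 ± 0.13 SE (edgeR adjusted p = 0.0102), or less than 1.5-fold, and *Hspa8*, a chaperone, 0.44 ± 0.13 SE (adjusted p = 0.0243).

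Among 16 genes of steroid synthesis, activation and efflux, 10 were tested, and 4 rose at 30 µg/kg, beside 5.42% of all genes called upward. *Abcb1a*, an efflux pump that carries corticosteroids among many substrates, was at 674 to 793 CPM in vehicle mice and 1209 to 2573 CPM at 30 µg/kg (log2 1.37 ± 0.28 SE, edgeR adjusted p = 0.0014). *Hsd3b3* rose by 1.83 ± 0.30 SE and *Hsd3b2* by 0.97 ± 0.21 SE, but 6.69% and 25.1% of their stretches of 50 bases also occur in other genes, so reads of these related genes may have been dropped or split. *Star*, which brings cholesterol into mitochondria, was at 0.66 to 1.38 CPM in vehicle mice (9 to 20 counts) and its call (1.01 ± 0.35 SE, adjusted p = 0.0465) was lost without any of mice 2, 3, 65, 67 or 68 (adjusted p 0.0551 to 0.189) and with DESeq2 (0.0536). Enzymes best known from the adrenal cortex were near 0, with at most 11 counts per mouse for *Cyp11a1*, 1 for *Cyp21a1* and 2 for *Cyp11b2*, none of which was tested.

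Genes of sodium transport, a process under both receptors, were split. Of 12 listed genes 10 were tested, 4 rose and 1 fell at 30 µg/kg, beside 5.42% of all genes called upward and 3.98% downward, and the median was 0.46. *Usp2*, a deubiquitinase that acts on the sodium channel and follows the clock, rose by 0.98 ± 0.16 SE on the log2 scale, and *Wnk4*, a kinase that controls ion transporters, by 0.81 ± 0.18 SE. *Slc9a3*, the main sodium-hydrogen exchanger of the brush border, was at 77.4 to 96.5 CPM in vehicle mice and fell at 30 µg/kg, with 23.6 to 39.7 CPM (-1.56 ± 0.34 SE, adjusted p = 0.00304). For *Slc9a3* the 3 mice of each dose from 0.03 µg/kg upward lay below all vehicle mice, beside 5.55% of all genes at 0.03 µg/kg. Of the 3 subunits of the epithelial sodium channel, *Scnn1b* and *Scnn1g* had at most 2 and 8 counts per mouse, and *Scnn1a* had an estimate of 0.42 ± 0.11 SE (edgeR adjusted p = 0.0115), less than 1.5-fold.

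The genes whose log2 CPM followed each member most closely over the 27 mice were picked by Pearson's r, which is given as a description of mice that share doses and index use. *Fkbp5* was closest to *Cdc37l1* (r = 0.95), *Cyp27a1* and *Mapk6*, and *Zbtb16* to *Cdc37l1* (r = 0.91), *Fkbp5* (r = 0.91) and *Bcar3*. *Sgk1* was closest to another member, *Tsc22d3* (r = 0.83), then to *Ddit4* (r = 0.82) and *Tcim*, and *Tsc22d3* to *Angptl4* (r = 0.90), *Serinc3* and *Sra1*. With the mean of each dose removed, r was 0.83 between *Sgk1* and *Tsc22d3* and 0.87 between *Tsc22d3* and *Angptl4*, so these genes also varied together among mice of 1 dose. *Klf9* was closest to *Gcnt3* (r = 0.93), *Cipc* and the clock gene *Per2* (r = 0.92), *Klf15* to *Dock9* (r = 0.85), *Slc6a6* and *Hif3a*, and *Nr3c2* to *Syt7* (r = 0.93), *Lnx1* and *Ank3*. *Nr3c1* was closest to *Cyld* (r = 0.84), *Arel1* and *Fam102b*, and *Hsd11b2* to *Vegfb* (r = 0.76), *Hs3st3b1* and *5330417C22Rik*. The other pairs given with an r varied once dose means were removed. It was then 0.82 for *Sgk1* and *Ddit4*, 0.78 for *Nr3c1* and *Cyld* and for *Hsd11b2* and *Vegfb*. *Cdc37l1* had 0.75 with *Fkbp5* and 0.61 with *Zbtb16*, and *Klf15* 0.61 with *Dock9*. Lower values were 0.56 for *Klf9* and *Gcnt3*, 0.52 for *Zbtb16* and *Fkbp5*, 0.51 for *Nr3c2* and *Syt7* and 0.45 for *Klf9* and *Per2*.

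The daily clock moved with dose as well. The labels do not give the time of day at which each mouse was killed. The effects of dose and time of day therefore cannot be told apart, for the clock genes or for the members. Of 14 clock genes, 9 rose and 4 fell at 30 µg/kg, beside 5.42% of all genes called upward and 3.98% downward. *Dbp*, a clock output gene, was at 0.346 to 0.634 CPM in vehicle mice and 29.5 to 55.8 CPM at 30 µg/kg. *Per3*, *Ciart* and *Nr1d1* rose by 4.09, 4.06 and 4.02 on the log2 scale (*Nr1d1* by 4.67 without mouse 3). A clock score, the mean z value of 8 genes such as *Dbp* minus that of 4 genes such as *Npas2*, was -1.89 to -1.57 in vehicle mice, -1.17 to -0.53 in mice given 0.3 µg/kg, 0.15 to 1.92 in those given 1 µg/kg and 1.98 to 2.35 in those given 30 µg/kg. Mouse 14 at 0.01 µg/kg, which had the highest *Klf9* and *Nr3c2* levels below 1 µg/kg, scored 1.43. Because the score rose with dose, its use as a covariate removes much of any dose effect. Such a fit cannot tell clock and dose apart. With the score as a covariate 39 of all genes were called at 30 µg/kg, beside 1574 without it. In that fit *Fkbp5* was the 1 member still called (2.38 ± 0.47 SE, edgeR adjusted p = 0.0326), *Zbtb16* had 3.23 ± 1.00 SE (adjusted p = 0.147), *Klf9* 0.46 ± 0.23 SE (adjusted p = 0.333) and *Klf15* 0.66 ± 0.78 SE (adjusted p = 0.709). When index use was the covariate, which is set by mouse 41 against mice 43 and 44 alone, *Fkbp5* (1.55), *Klf9* (1.35) and *Klf15* (2.74) were still called at 30 µg/kg among 482 genes in all, and *Sgk1* turned to -0.77 (adjusted p = 0.579).

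Markers of other cells also differed between mice. The sum of 8 smooth muscle markers was 380 CPM in mouse 65 and 89.9 and 43.5 CPM in mice 67 and 68, beside 31.0 to 126 CPM in vehicle mice, and none of these 8 genes was called at 30 µg/kg. With a smooth muscle score as a covariate the same number of members, 6, was called at 30 µg/kg, and 0 between 30 and 10 µg/kg. The sum of 8 lymphoid markers was 335 to 502 CPM in vehicle mice and 214 to 269 CPM at 30 µg/kg, with 1 of 8 called, downward, and the sum of 5 goblet, Paneth and endocrine markers was 9136 to 11060 CPM and 11650 to 14330 CPM, with 2 of 5 called, upward. Of the 6 enterocyte markers 1 fell, the sum being 9935 to 10780 CPM in vehicle mice and 7873 to 13330 CPM at 30 µg/kg. The sum of 6 myeloid markers was 92.0 to 121 CPM and 68.3 to 87.0 CPM, with 1 called, downward, and that of 8 fibroblast and endothelial markers 99.2 to 203 CPM and 73.7 to 141 CPM, with none called. Of 10 immediate early genes 1, *Egr1*, fell (log2 -1.19 ± 0.29 SE, edgeR adjusted p = 0.00721). Beside these counts, 5.42% of all genes were called upward at 30 µg/kg and 3.98% downward. The part of these cell types in the members' changes was not tested.

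**Figure D5:**
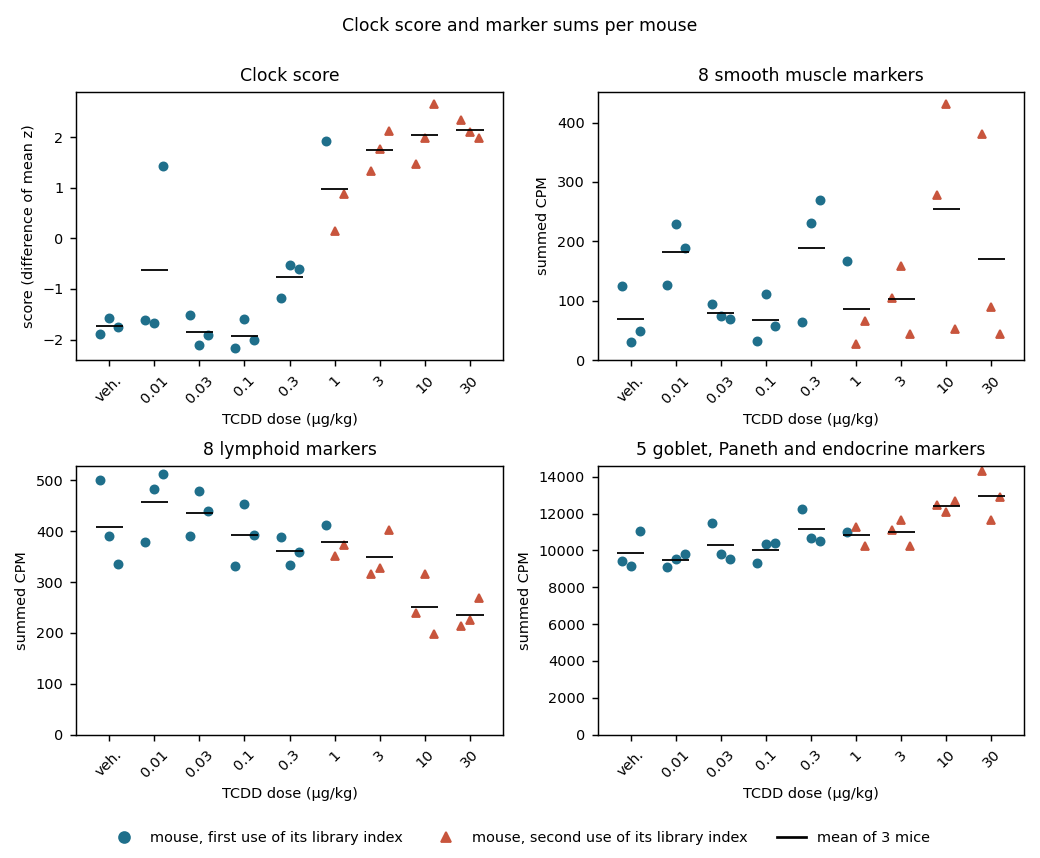
Clock score and summed CPM of smooth muscle, lymphoid, and goblet, Paneth and endocrine markers per mouse (vertical axes) by TCDD dose in µg/kg (horizontal axes, veh. for vehicle), with circles and triangles for the first and second use of the library index and lines for the mean of 3 mice. The clock score is above 0 in all 12 mice from 1 µg/kg upward and, below that dose, in mouse 14 alone (1.43).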

How the data were processed

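RNA of ileal epithelium scrapings was sequenced in 27 mice, 3 per group. The submitters' processing notes name FastQC 0.11.3, Trimmomatic 0.33, TopHat2 2.1.0, SAMtools 1.2.0, HTSeq 0.6.1 and the genome GRCm38. The authors deposited unnormalized read counts for Ensembl genes, with a table for each mouse. Counting mode and strand setting are not given in the sources used here, so reads of overlapping genes may be missing: 3.82% of *Nr3c2* exon bases overlap another gene, and no other member but *Cyp11b1* overlaps any. Of uniquely assigned and unassigned reads, 44.48% to 49.52% matched no gene and were left out. Gene symbols and coordinates came from GENCODE M21.

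Counts were tested with edgeR 4.0.16 in R 4.3.3 (TMM, quasi-likelihood, 9 groups, no covariate). Genes were kept by filterByExpr (minimum count 10, total 15), leaving 16741, with Benjamini-Hochberg adjustment in each comparison. The paper's posterior probability criterion was replaced by the adjusted p. SE was taken from the estimate and its F statistic (estimate over root F). CPM used TMM library sizes, and log2 CPM a prior count of 2. None of the 27 pairs of mice of 1 dose was within sampling noise. On simulated counts of the 30 µg/kg comparison (16495 genes) the test recovered 72 of 100 genes changed 2-fold and 96 of 100 changed 4-fold, with 7 false calls. The labels do not give each mouse's cage, so p-values treat mice as independent.

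The members and lists were chosen with earlier results of these data known. Besides the members, the text names up to 4 genes per list called at 30 µg/kg with the largest change, any other target or steroid gene called at a dose, and the 3 genes most like each member. A gene that this rule names in the sodium transport list is not reported here. *Dusp1*, *Ddit4*, *Nfkbia*, *Mt1*, *Mt2*, *Fkbp4*, *Hspa8*, *Scnn1a*, *Scnn1b*, *Scnn1g*, *Cyp11a1*, *Cyp21a1* and *Cyp11b2* were named from the lists after their values were seen. The indexes were read from the deposited file names, and first and second use were counted in order of mouse number. Alternatives were DESeq2 1.42.0, library size only, upper quartile normalization, no or a stricter count filter, no fold minimum, fits of the 6 mice compared, index use or the clock score as covariates, Spearman's rho for likeness, leaving out each mouse and, added after seeing the data, a smooth muscle score as a covariate. Tables and plots used Python 3.11.15 with numpy 2.4.6, pandas 2.3.3 and matplotlib 3.10.9.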

Additional observations from a re-analysis of the deposited data

How the results depend on the processing

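No paired analysis was made, because each dose was given to different mice. Counts of members called did not move by over 1.5 times under DESeq2, library size only, upper quartile normalization or at least 10 counts in every mouse. With the clock score as a covariate, 0 members were called at 1 and 10 µg/kg, 1 at 30 µg/kg, 2 among groups and 0 in the trend, and with index use 1, 3, 3 and 0 at 10 µg/kg, at 30 µg/kg, among groups and in the trend. Within the first index use the trend held for 0 and within the second for 4. In fits of the 6 mice compared, 2 were called at 3 µg/kg, 5 at 10 µg/kg, 0 between 30 and 3 µg/kg and 0 between 30 and 10 µg/kg. Between 30 and 10 µg/kg, 4 were called without a filter on low counts and 0 with the smooth muscle score, and without a fold minimum 1 was called at 3 µg/kg. Without 1 mouse the counts were 0 to 1 at 3 µg/kg (1 without mouse 4), 5 to 6 at 30 µg/kg, 2 to 4 between 30 and 3 µg/kg, 0 to 4 between 30 and 10 µg/kg, 5 to 7 among groups and 6 to 9 in the trend.

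Estimates that changed sign were, with the clock score, *Nr3c1* at 10 µg/kg (0.03), at 30 µg/kg (0.08) and in the trend (0.000251), *Hsd11b2* (-0.04) and *Klf15* (-0.01) at 10 µg/kg and *Slc9a3* at 30 µg/kg (0.17). With index use they were *Fkbp5* at 3 µg/kg (-0.05), *Tsc22d3* (-0.37) and *Sgk1* (-2.05) at 10 µg/kg and *Sgk1* at 30 µg/kg (-0.77). Within the first index use the trends of *Hsd11b2* (-0.0219), *Tsc22d3* (-0.0262) and *Sgk1* (-0.0497) turned, and *Sgk1* at 10 µg/kg ran from -0.16 to 0.35 without 1 mouse, turning without mouse 58 or 59. The cause was not tested. Scaling by library size alone shifted the median of all genes at 30 µg/kg to -0.11, against 0.02, with *Nr3c1* at -0.32. By Spearman's rho, 0 or 1 of the 3 most like genes was the same for 7 of 9 members.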
